A study of Mus musculus with 10 samples.

Results

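Ifit1, Ifit2, Ifit3, Isg15, Usp18, Herc6, Rsad2, Ifi44 and Ifi27l2a are 9 interferon-stimulated genes of the IFIT and ISG15 antiviral system. They were chosen by name, and each of the 9 listed names was found once in every one of the 10 gene tables, which hold 25814 genes each. The study asked how CD8+ T cells and keratinocytes alter each other's gene expression. Polyadenylated RNA of C57/B6 mouse cells was sequenced in 10 libraries, 2 for each of 5 groups. Primary keratinocytes, grown from the tails of adult mice in serum-free keratinocyte medium, were kept alone (Kera alone) or sequenced after co-culture with CD8+ T cells that were then washed off (Kera co-culture). Splenic CD8+ T cells, isolated with CD8 microbeads, were activated by αCD3/CD28 antibodies for 1 d and sequenced then (T activated), after 1 further day in keratinocyte medium (T medium), or after 1 further day with keratinocytes (T co-culture). Every T-cell group, and the T cells added to the keratinocytes, had thus received the same activation, and no unactivated T cells were among the 10 libraries. By the methods the further day took place in a 4:1 mix of keratinocyte and T-cell medium, so age after activation and medium changed together between T activated and the other T-cell groups and cannot be told apart. The same mix was used for all co-cultures, and the sources do not say that Kera alone received it, so the effects of T cells and of the medium on keratinocytes cannot be told apart either. The labels do not say whether the 2 libraries of a group came from separate animals, so the p-values measure only the spread between these libraries.

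Type I and type III interferons act through receptors on the cell surface and lead to binding of the interferon-stimulated response element (ISRE) in front of genes such as those described here. Interferon-γ, the type made by activated T cells, acts mainly through the GAS element, and it induces the factor IRF1, which also binds ISRE-like sites. IFIT proteins bind viral RNA and hinder its translation. ISG15 is a small ubiquitin-like protein that is joined to other proteins by UBA7, UBE2L6 and, in the mouse, the ligase HERC6, and is taken off again by USP18, which also dampens signalling at the type I interferon receptor.

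Exon reads per library ranged from 12864931 to 18019609, and 78.2 to 87.2% of them were uniquely mapped. Levels are given in RPKM, the deposited read count divided by exon length and by the mapped reads of the library, a scale per length on which genes can be compared. The floor of 3 reads on a gene of 1 kilobase lay between 0.158 and 0.212 RPKM over the 10 libraries and covers counting error only. The 10 keratinocyte markers summed to between 13948 and 19021 RPKM in keratinocyte libraries, to between 9.10 and 25.8 RPKM in T activated and T medium, and to 105.5 and 57.7 RPKM in T co-culture. The 10 T-cell markers, of which Trac was listed at 0 everywhere, summed to between 1402 and 2891 RPKM in T-cell libraries and to 113.4 and 444.6 RPKM in Kera alone and 144.5 and 794.8 RPKM in Kera co-culture. Library 2 of each keratinocyte group therefore held several times more T-cell marker RNA than library 1, with and without added T cells. In bulk RNA, fewer cells of a type and less RNA per cell cannot be told apart.

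Promoter sequence from RefSeq (GRCm38.p6, from 250 bases before to 50 bases after the transcription start) was at hand for 7 of the 9 genes, and Usp18 and Ifi27l2a were not in the table. The windows were searched on both strands for the ISRE core, GAAANNGAAA, and for the GAS core, TTCNNNGAA. The stretches that carry a match are shown because these letters are the binding sites named above, and capitals mark the matched bases. Each is written 5′ to 3′ along the strand of its gene.
Ifit1, chr19:34640770-34640828, plus strand: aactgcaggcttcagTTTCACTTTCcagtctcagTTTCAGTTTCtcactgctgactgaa
Ifit3, chr19:34583358-34583431, plus strand: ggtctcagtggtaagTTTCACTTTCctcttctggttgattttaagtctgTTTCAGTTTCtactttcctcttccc
Isg15, chr4:156200860-156200911, minus strand: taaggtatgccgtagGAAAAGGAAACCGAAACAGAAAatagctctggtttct
Rsad2, chr12:26456548-26456587, minus strand: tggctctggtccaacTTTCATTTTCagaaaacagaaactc
Ifit2, first of its starts, chr19:34550444-34550476, plus strand: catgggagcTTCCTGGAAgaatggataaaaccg

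The ISRE core occurred in 4 of the 7 genes with a promoter entry, Ifit1, Ifit3, Isg15 and Rsad2, against 3.99% of all 27025 genes and 3.44% of all 32851 windows in the table. Ifit1 and Ifit3 each held 2 separate matches, both read on the opposite strand, and in each gene the first had the letters TTTCACTTTC and the second TTTCAGTTTC. Isg15 held 3 matches that overlapped one another, and Rsad2 held 1. The matches began between 156 and 66 bases before the start. The GAS core occurred in 1 of the 7, at one start of Ifit2, against 9.55% of all genes. No ISRE match overlapped a GAS match in these windows, and Herc6 and Ifi44 held neither sequence. A match is a stretch of letters and was not tested for binding.

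**Figure D1:**
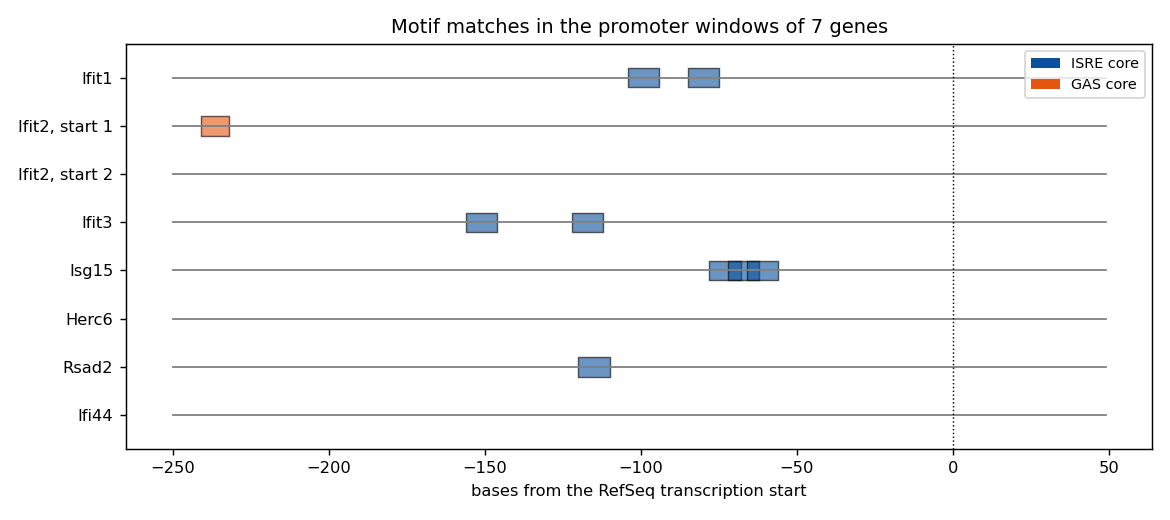
Each line is a promoter window of 300 bases, with distance from the RefSeq transcription start on the horizontal axis, and boxes mark matches to the ISRE core (blue) and the GAS core (orange). Matches to the ISRE core lie in Ifit1, Ifit3, Isg15 and Rsad2, all within 156 bases before the start, and 1 GAS match lies far upstream in Ifit2.

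Ifit1, Ifit2 and Ifit3, which encode RNA-binding antiviral proteins, lie on chromosome 19 on the plus strand (GRCm38). Ifit1 (ENSMUSG00000034459, 34640871 to 34650009, 2 exons) was measured at 0.258 and 0.995 RPKM in Kera alone and at 13.7 and 4.63 RPKM in Kera co-culture. In T cells Ifit1 was at 0.986 and 1.88 RPKM in T activated, 1.85 and 2.36 RPKM in T medium, and 2.94 and 0.905 RPKM in T co-culture. Both Kera co-culture libraries thus stood above the other 8, whose 4 groups overlapped with their neighbours in the order of means.

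Ifit3 (ENSMUSG00000074896, 34583531 to 34588731, 2 exons) had the same arrangement, with 0.242 and 0.942 RPKM in Kera alone and 13.2 and 6.46 RPKM in Kera co-culture. The T-cell libraries held 0.682 and 2.745 RPKM in T activated, 2.11 and 4.82 in T medium, and 2.41 and 2.19 in T co-culture. Over all 10 libraries 48.9% of the 981 reads of Ifit3 were uniquely mapped, because the gene has a near-identical copy, Ifit3b, so the division of reads between them is uncertain. Of the reads of Ifit1 97.1% were unique, and every read of Ifit2 was.

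Ifit2 (ENSMUSG00000045932, 34550694 to 34576419, 6 exons) was ordered otherwise. It was lowest in Kera alone, at 1.69 and 1.57 RPKM, higher in Kera co-culture at 3.74 and 2.28 RPKM and in T activated at 3.12 and 2.23 RPKM, and highest in T medium at 8.74 and 4.12 RPKM and T co-culture at 8.81 and 4.75 RPKM. The last pair of groups overlapped, as did Kera co-culture with T activated, and each pair lay apart from the groups next to it.

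Isg15 (ENSMUSG00000035692, chromosome 4, 156199424 to 156200818, minus strand, 2 exons) gave the highest level after Ifi27l2a. It was at 2.79 and 5.20 RPKM in Kera alone and 50.4 and 33.5 RPKM in Kera co-culture. T cells held 13.2 and 12.5 RPKM when activated, 12.2 and 14.8 RPKM in medium, and 16.2 and 18.7 RPKM after co-culture. T medium and T activated overlapped, and every other neighbouring pair of groups was separate.

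Usp18 (ENSMUSG00000030107, chromosome 6, 121245906 to 121270917, plus strand, 13 exons) was by contrast higher in all 6 T-cell libraries than in all 4 keratinocyte libraries. The values were 0.833 and 2.28 RPKM in Kera alone, 2.77 and 4.56 RPKM in Kera co-culture, and 11.0 and 9.74 RPKM in T activated. T medium was at 7.94 and 8.80 RPKM and T co-culture at 15.2 and 14.3 RPKM. None of the 5 groups overlapped with a neighbour. Isg15 and the enzyme that removes it therefore stood in different proportion in the cells: the Isg15 to Usp18 ratio of RPKM was 18.2 and 7.35 in Kera co-culture, 3.35 and 2.29 in Kera alone, and between 1.06 and 1.68 in the 6 T-cell libraries.

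Herc6 (ENSMUSG00000029798, chromosome 6, 57581000 to 57664632, plus strand, 25 exons) was lowest in Kera alone, at 0.583 and 0.956 RPKM. It was at 3.91 and 2.34 RPKM in Kera co-culture, 2.47 and 2.10 RPKM in T activated, 4.66 and 3.39 RPKM in T medium, and 4.81 and 3.56 RPKM in T co-culture. Those 4 groups overlapped in turn, and only Kera alone was separate.

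Rsad2 (ENSMUSG00000020641, chromosome 12, 26442746 to 26456452, minus strand, 9 exons) encodes viperin, a radical SAM enzyme that makes a chain-terminating nucleotide. It was at 0.350 and 0.808 RPKM in Kera alone and 3.67 and 3.335 RPKM in Kera co-culture. The T-cell libraries lay between 0.358 and 1.51 RPKM and overlapped with one another and with Kera alone.

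Ifi44 (ENSMUSG00000028037, chromosome 3, 151730922 to 151749960, minus strand, 8 exons) was low outside Kera co-culture. It had 3 and 0 reads in Kera alone and 212 and 117 reads in Kera co-culture, or 4.79 and 2.44 RPKM. In T cells the 3 groups did not overlap, with 31 and 19 reads in T activated, 17 and 15 in T medium, and 3 and 0 in T co-culture. Where a library had 0 reads, a level of up to 3 reads is allowed, so absence cannot be told from a low level there.

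Ifi27l2a (ENSMUSG00000079017, chromosome 12, 103442167 to 103443680, minus strand, 4 exons), which encodes a small interferon-induced membrane protein, had the highest levels of the 9. T medium held 351.6 and 400.0 RPKM and T co-culture 356.65 and 316.3 RPKM, against 80.2 and 216.7 RPKM in T activated. Keratinocytes held 23.1 and 85.1 RPKM alone and 27.7 and 142.2 RPKM after co-culture, so these groups overlapped with each other and with T activated.

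**Figure D2:**
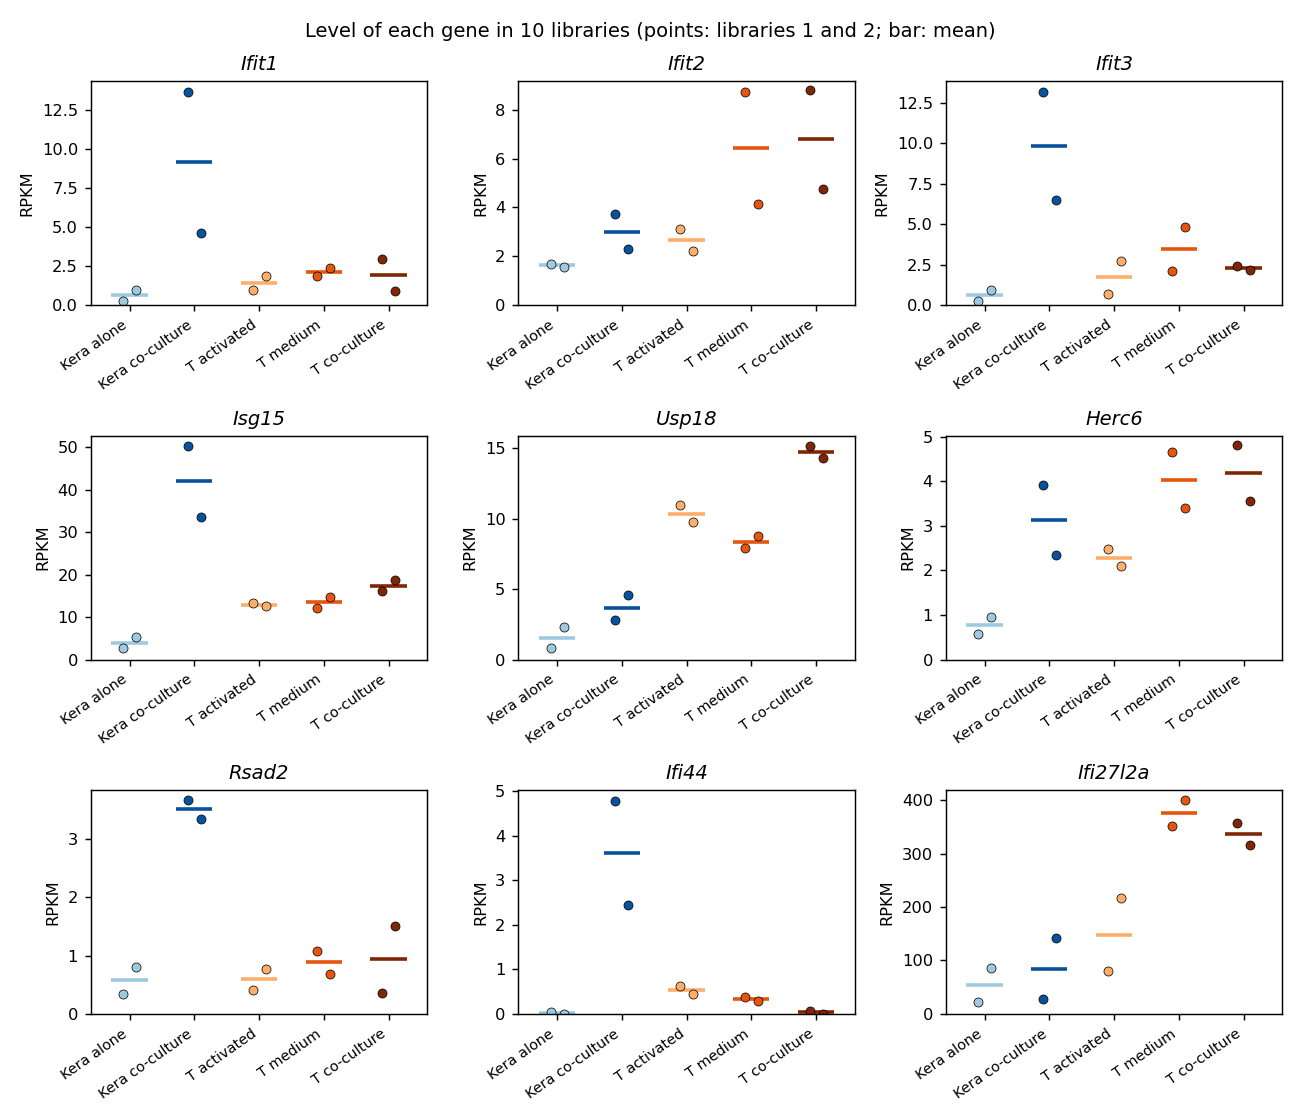
Each panel gives 1 gene in RPKM on a linear axis from 0, with a point for each of the 2 libraries of a group and a bar at their mean. Ifit1, Ifit3, Isg15, Rsad2 and Ifi44 are highest in Kera co-culture, while Usp18 is higher in T-cell than in keratinocyte groups. Ifi27l2a and Ifit2 are highest in T medium and T co-culture, and for Ifi27l2a T activated overlaps with the keratinocyte groups.

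The first comparison asked how keratinocytes after co-culture, with its mixed medium, differed from keratinocytes alone. All 9 genes had a higher mean in Kera co-culture, and for 8 of them, all but Ifi27l2a, both libraries lay above both Kera alone libraries, against 19.8% of the 12515 genes tested. None of the 9 was called by edgeR's quasi-likelihood test after Benjamini-Hochberg adjustment over all genes, where 0% of genes were called higher. At an unadjusted p under 0.05, 6 of the 9 were higher (background 3.08%), namely Ifit1, Ifit3, Isg15, Herc6, Rsad2 and Ifi44. DESeq2 called those same 6 higher after adjustment (background 0.703%), and limma on log2(RPKM + 1) and on log2(RPKM + 0.1) called none. The median log2 fold change of the 9 was 2.65, against 0.02 over all genes.

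Among the IFIT genes, Ifit3 was 16.6-fold higher in the group means (log2 fold change 4.08 ± 0.84 SE; edgeR adjusted p = 0.658, DESeq2 adjusted p = 0.000154) and Ifit1 14.6-fold higher (3.89 ± 0.91; edgeR adjusted p = 0.658, DESeq2 adjusted p = 0.000802). Ifit2 was 1.85-fold higher (log2 fold change 0.94 ± 0.42, edgeR unadjusted p = 0.0759). In the ISG15 cycle, Isg15 was 10.5-fold higher (3.44 ± 0.50; edgeR adjusted p = 0.478, DESeq2 adjusted p = 4.06e-07), Herc6 4.06-fold (2.07 ± 0.50; DESeq2 adjusted p = 0.0409), and Usp18 2.36-fold (1.31 ± 0.72; edgeR adjusted p = 0.658). The ligase thus had a larger fold than the protease, although the difference between them was not tested.

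Rsad2 was 6.05-fold higher (log2 fold change 2.65 ± 0.58; edgeR adjusted p = 0.658, DESeq2 adjusted p = 0.00631). For Ifi44 the ratio of reads scaled to depth was 124.6, with a 95% counting interval from 42.3 to 607.3, and the fitted log2 change of 6.94 rests on the added prior count because Kera alone held only 3 reads. Ifi27l2a was 1.57-fold higher (log2 fold change 0.75 ± 1.01, edgeR adjusted p = 0.794), and without library 2 of Kera co-culture its difference turned to -0.99.

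With 2 libraries against 2 an exact permutation test cannot give p below 0.333 for a single gene. Without library 1 of Kera co-culture, edgeR called Ifit3 (adjusted p = 0.0415), Isg15 (0.0131), Rsad2 (0.0486) and Ifi44 (0.0201) higher, 4 of the 9 against 0.816% of all genes. That fit takes its spread from the 2 Kera alone libraries and assumes that the lone co-culture library varies like them, and over all genes it called 107 higher and 1057 lower.

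Markers of T cells moved unequally with these values. Relative to the mean of T co-culture, Cd3d, a chain of the T-cell receptor complex, was at 5.02 and 18.7% in Kera alone and at 5.28 and 32.0% in Kera co-culture, and the helper T-cell marker Cd4 was at 18.1 and 68.8%, and 23.6 and 133%. Cd8a was between 0.0452 and 0.446% in the same 4 libraries. Keratinocyte libraries with and without added T cells thus held Cd3d and Cd4 RNA in which the marker of the added cells was nearly missing.

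Ifi27l2a differed between the libraries much as Cd3d did. On the same scale Ifi27l2a was at 6.87 and 25.3% in Kera alone and 8.24 and 42.3% in Kera co-culture, and the ratio of Ifi27l2a to Cd3d was between 1.24 and 1.46 in all 4 keratinocyte libraries and between 0.73 and 1.03 in all 6 T-cell libraries. Against Cd3g, another chain of the same complex, the ratio was between 0.576 and 0.675 in keratinocyte libraries and between 0.583 and 0.78 in T-cell libraries, so the ranges that were apart for Cd3d overlapped for Cd3g. Usp18 was at 5.65 and 15.5% in Kera alone and 18.8 and 30.9% in Kera co-culture, so library 2 was the higher one in both groups. Isg15 reached 289 and 192% of its T co-culture mean in Kera co-culture, Ifit1 712 and 241%, and Ifit3 574 and 281%, with the higher value in library 1, which had the lower Cd3d. The part of T-cell RNA in the keratinocyte values was not tested.

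**Figure D3:**
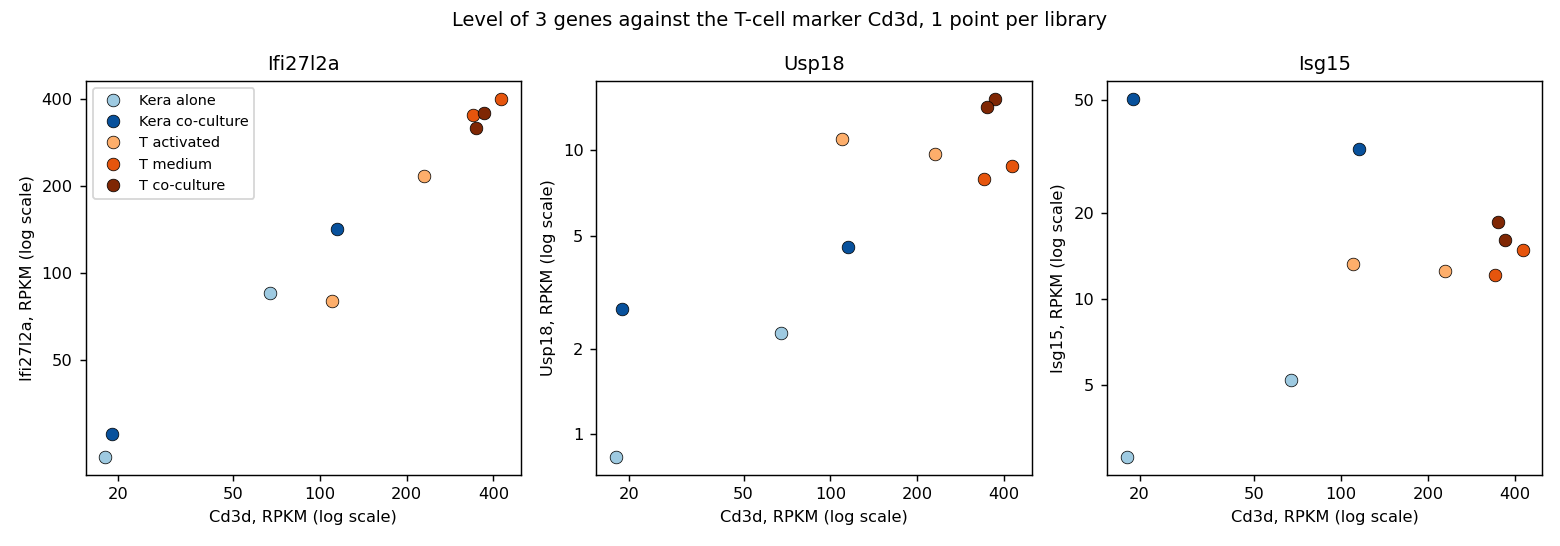
RPKM of Ifi27l2a, Usp18 and Isg15 against RPKM of the T-cell marker Cd3d, both on log axes, with 1 point for each of the 10 libraries, coloured by group. Ifi27l2a is in general higher where Cd3d is higher, and the Kera co-culture libraries hold more Isg15 than every T-cell library at a Cd3d of 19.0 and 115.0 RPKM.

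The next comparisons asked how T cells differed after a further day, in medium or with keratinocytes. The medium and co-culture comparisons with T activated share the 2 T activated libraries, so they are not independent. After the day in medium, 7 of the 9 genes had a higher fitted level and Usp18 and Ifi44 a lower one, with a median log2 fold change of 0.70 against -0.01 over all 11863 genes. None of the 9 was called by edgeR after adjustment (background 2.32% higher and 4.22% lower). At an unadjusted p under 0.05, 3 of the 9 were higher (background 11.0%): Ifit2 (log2 fold change 1.39 ± 0.47 SE), Herc6 (0.95 ± 0.38) and Ifi27l2a (1.47 ± 0.48).

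DESeq2 called 2 of the 9 higher (background 7.26%), Ifit2 with adjusted p = 0.0354 and Ifi27l2a with adjusted p = 0.0261. Ifit2, Herc6 and Ifi27l2a were also the 3 genes whose T medium libraries both lay above T activated (background 22.1%), and Usp18 and Ifi44 were the 2 that lay below (background 32.5%). Without library 2 of T activated, the one with more Ifi27l2a, the edgeR log2 fold change of Ifi27l2a was 2.44. Over all fits without 1 library it ranged from 0.92 to 2.44. In a fit with a lone T activated library the other T-cell groups supply the spread, and that library is assumed to vary like them.

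T-cell markers differed in the same comparison. DESeq2 called 3 of the 9 tested markers higher in T medium (all genes 7.26%). These were Cd8b1 (edgeR log2 fold change 1.59 ± 0.47 SE, DESeq2 adjusted p = 0.00603), Cd3d (1.31 ± 0.42, 0.0239) and Cd8a (1.09 ± 0.34, 0.014). edgeR called none after adjustment, and 4 were higher at an unadjusted p under 0.05 (all genes 11.0%). The fitted change of Ifi27l2a, 1.47, was thus close to those of Cd3d and Cd8b1, which were among the largest of the markers. Over the 9 tested markers the log2 fold changes ran from -0.29 to 1.59 with a median of 0.67, and 8 were above 0. The T activated libraries also differed from each other: library 2 held 216.7 RPKM of Ifi27l2a, 230.0 of Cd3d, 102 of Cd4 and 57.4 of the myeloid marker Lyz2, against 80.2, 109.9, 16.8 and 10.6 RPKM in library 1. Cd8b1 and Cd8a went the other way, at 141 and 110 RPKM in library 2 against 277 and 176 in library 1. Another myeloid marker, Cd68, was at 4.42 RPKM in library 2 and 3.83 in library 1. The part of these differences in the values of the 9 genes was not tested.

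After the day in co-culture the same 3 genes had the smallest p among those higher than in T activated. edgeR called 0 of the 9 after adjustment (background 4.59% higher and 5.72% lower), and 3 were higher at an unadjusted p under 0.05 (background 13.9%): Ifit2 (log2 fold change 1.52 ± 0.47), Herc6 (1.06 ± 0.38) and Ifi27l2a (1.35 ± 0.48). DESeq2 called these 3 higher after adjustment (0.0166, 0.0480 and 0.0393, background 9.56%). As in medium, DESeq2 called 3 of the 9 tested T-cell markers higher (all genes 9.56%), with Cd3d at 1.26 ± 0.42 on the log2 scale. The 9 markers ran from -0.29 to 1.45 on that scale, with a median of 0.49. Both libraries of T co-culture lay above T activated for 5 genes, these 3 with Isg15 and Usp18 (background 23.6%).

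Ifi44 was the 1 gene of the 9 that was lower at an unadjusted p under 0.05 (background 14.9%) and the 1 that lay below without overlap (background 33.9%). Its 3 reads in T co-culture against 50 in T activated gave a read ratio of 0.0638, with a 95% counting interval from 0.0127 to 0.197 (edgeR adjusted p = 0.161), and limma on log2(RPKM + 0.1) called it (adjusted p = 0.0412). Without library 2 of T activated, edgeR called Ifi27l2a higher (log2 fold change 2.31, adjusted p = 0.0252, 1 of the 9 against 4.07% of all genes), again with a lone T activated library and the spread of the other T-cell groups.

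Co-culture against medium alone compared T cells of the same age after activation. The log2 fold changes of all but Usp18 and Ifi44 were smaller than their standard errors: Ifit2 0.12 ± 0.46, Herc6 0.10 ± 0.37, Ifi27l2a -0.12 ± 0.47, Ifit1 -0.14 ± 0.71, Rsad2 0.20 ± 0.87, Ifit3 -0.58 ± 0.82 and Isg15 0.42 ± 0.43. With errors of this size, changes of the order of the errors cannot be told from none. Usp18 was higher (0.86 ± 0.35, edgeR unadjusted p = 0.0415), the 1 gene of the 9 at that level (background 2.70%), and its adjusted p was 1. edgeR called none of the 9 (background 0.261% higher and 0% lower), and DESeq2 called none higher (background 0.666%).

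Isg15 (0.42 ± 0.43) and Usp18 were the 2 genes with both T co-culture libraries above T medium (background 14.2%), and Ifi44 the 1 with both below (background 13.1%). Ifi44 held 3 reads against 32, a read ratio of 0.104 with a 95% counting interval from 0.0204 to 0.334 (edgeR unadjusted p = 0.0724). Of the 6 keratinocyte markers tested, 5 had a higher fitted level in T co-culture than in T medium, and Sfn a lower one (log2 fold change -0.36). edgeR called 2 of the 6 higher (all genes 0.261%), Krt14 (61.6 and 16.8 RPKM against 0.419 and 1.06, adjusted p = 0.0449) and Perp (25.1 and 32.1 RPKM against 1.19 and 1.69, adjusted p = 0.0131). Krt14, a basal keratin, was at 0.623 and 0.17% of its mean in Kera co-culture, and Isg15 was at 38.5 and 44.6% of its own. For all 5 B-cell markers both T co-culture libraries lay below T medium (background 13.1%). These markers summed to 16.6 and 27.3 RPKM in T co-culture and to 44.7 and 92.5 RPKM in T medium. The part of keratinocyte RNA and of B-cell RNA in the T-cell values was not tested.

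**Figure D4:**
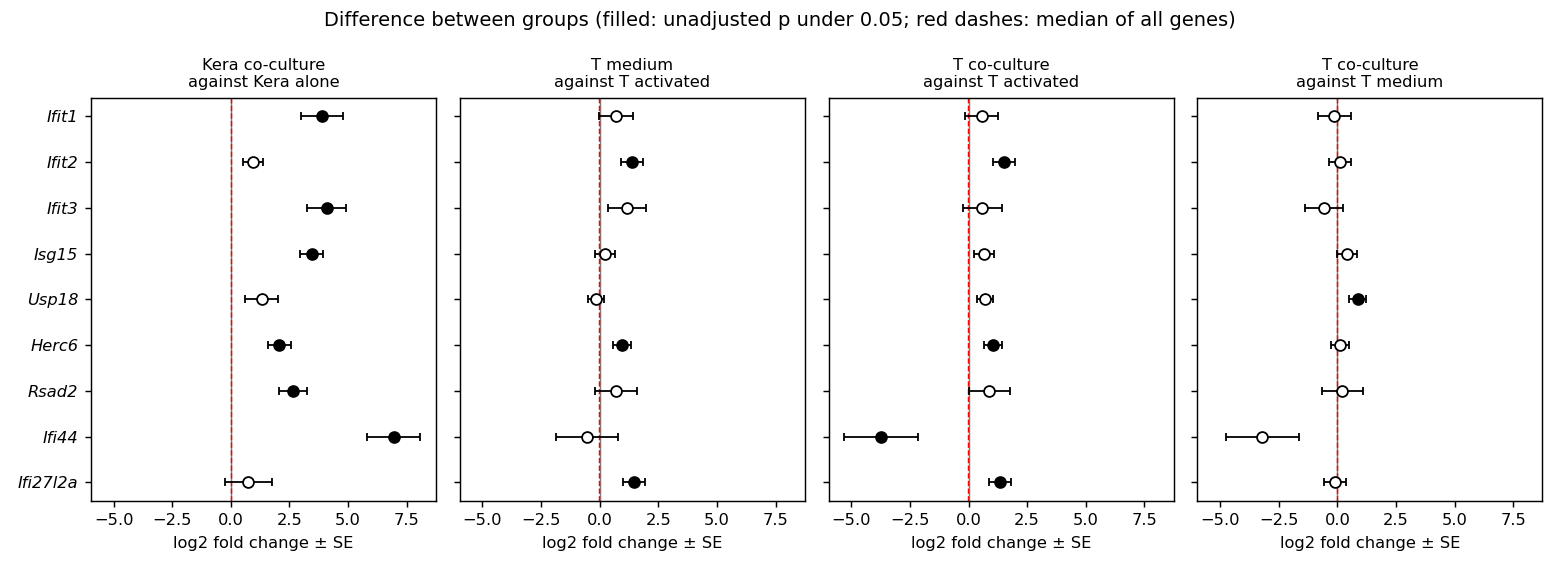
Log2 fold change with its standard error for the 9 genes in 4 comparisons by edgeR, with filled points for an unadjusted p under 0.05 and a red dashed line at the median of all genes. In keratinocytes all 9 points lie above 0 and 6 are filled, whereas in T co-culture against T medium only Usp18 is filled.

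The changes in the cell types were compared by an interaction, the change of Kera co-culture from Kera alone minus the change of T co-culture from T medium. T medium had the mixed medium of the co-cultures, whereas the sources do not say that Kera alone had it. A difference in the response to co-culture therefore cannot be told apart from an effect of the medium on keratinocytes. The term was above 0 for all 9 genes, with a median of 2.44 on the log2 scale against 0.02 over 13202 genes. edgeR called 0 of the 9 after adjustment (background 0.0530%), and 5 were higher at an unadjusted p under 0.05 (background 2.47%): Ifi44, Isg15, Ifit3, Ifit1 and Herc6. DESeq2 called 3 of them (background 0.454%).

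These 3 were Isg15 (edgeR 3.0 ± 0.64 SE with adjusted p = 0.142, DESeq2 adjusted p = 0.00422), Ifit3 (4.63 ± 1.10 with adjusted p = 0.197, DESeq2 adjusted p = 0.0061) and Ifi44 (10.10 ± 1.90 with adjusted p = 0.0945, DESeq2 adjusted p = 2.46e-06). The Ifi44 term rests on groups with 3 reads in all and depends on the prior count. The terms of Usp18 (0.45 ± 0.78) and Ifi27l2a (0.89 ± 1.19) were smaller than their SE.

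The reads that crossed exon borders gave a second readout. Over all genes 24.4 to 27.1% of exon reads spanned an exon junction, and shares over the libraries ran from 21.8 to 48.5% for Usp18, 19.2 to 46.2% for Herc6 and 36.7 to 47.7% for Ifi27l2a. Rsad2, with 9 exons, differed between the Kera co-culture libraries: 27 of 235 reads spanned a junction in library 1 (11.5%, 95% Wilson interval 8.02 to 16.2%) and 0 of 232 in library 2, which allows a share of up to 1.29%. Among genes with 5 or more exons and 150 to 300 reads, 0.113% had no junction read in library 1 and 2.53% in library 2. Ifit1 likewise had 17 of 553 and 0 of 203, but with 2 exons it is not among the genes of that background. Ifit2, with 6 exons, had 10 of 223 and 0 of 148. Libraries without a junction read were not particular to that one: Rsad2 had 0 of 58 in library 2 of Kera alone, 0 of 47 in library 2 of T activated, and 0 of 70 and 0 of 50 in T medium. Ifit1 had no junction read in either library of Kera alone, T activated and T co-culture. The levels of these 3 genes in library 2 of Kera co-culture thus came without spliced reads, and the part this has in the values was not tested.

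The other genes of the ISG15 pathway were counted next. Of 12 listed (the activating and conjugating enzymes, other ligases and proteases, and the integrin that binds free ISG15), edgeR called none after adjustment, with 2 higher and 1 lower in keratinocytes at an unadjusted p under 0.05 (all genes 3.08% and 4.12%), 2 higher by DESeq2 (all genes 0.703%), and a median log2 fold change of 0.13. The 2 were the enzymes that act before HERC6. Ube2l6 was at 4.56 and 7.32 RPKM in Kera alone and 64.9 and 49.1 in Kera co-culture (3.32 ± 0.40 SE, edgeR adjusted p = 0.434, DESeq2 adjusted p = 5.9e-10), and Uba7 at 0.952 and 1.79, then 7.26 and 5.92 (2.32 ± 0.47, DESeq2 adjusted p = 0.00384). Herc2 was the lower one, at 5.38 and 3.30 RPKM alone and 2.09 and 0.885 in co-culture (edgeR unadjusted p = 0.0297).

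In T cells Uba7 rose with the further day, from 2.47 and 2.19 RPKM to 12.6 and 9.93 in medium (2.41 ± 0.39, edgeR adjusted p = 0.0189) and to 12.6 and 7.05 in co-culture (adjusted p = 0.0140), and so did Herc3, a ligase related to HERC6, from 1.95 and 1.30 to 16.2 and 8.33 RPKM in medium (3.05 ± 0.41, adjusted p = 0.0136). These 2 were the only ones of the 12 that edgeR called in T medium or T co-culture against T activated, both higher (all genes 2.32% and 4.59%). DESeq2 called 2 higher in T medium (all genes 7.26%), and 3 higher and 1 lower in T co-culture (all genes 9.56% and 10.4%). The lower one was Usp16, a protease of the list, at 20.1 and 8.96 RPKM in T activated. It was at 6.64 and 1.71 in T medium (edgeR unadjusted p = 0.0295) and 3.29 and 2.35 in T co-culture (DESeq2 adjusted p = 0.00849). Ube2l6 in T cells lay between 9.05 and 15.0 RPKM.

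Of 12 listed paralogs and neighbours of the 9 genes, 8 were in the tables and 6 were tested. In keratinocytes edgeR called none after adjustment, and 3 were higher at an unadjusted p under 0.05 (all genes 3.08%) and 2 by DESeq2 (all genes 0.703%). Ifit3b, which shares reads with Ifit3, was at 0.079 and 0.235 RPKM alone and 5.82 and 1.49 in co-culture (DESeq2 adjusted p = 0.00248), and Ifit1bl1 at 0.764 and 1.83, then 22.2 and 5.57 (DESeq2 adjusted p = 0.00269). Cmpk2, the neighbour of Rsad2 that supplies its nucleotide substrate, overlapped between the keratinocyte groups, at 0.263 and 1.12 against 0.946 and 2.20 RPKM. In T cells edgeR called 2 of the 6 higher after the day in medium (all genes 2.32%). These were Ifi27 (26.6 and 34.9 to 103 and 133 RPKM, adjusted p = 0.0235) and Cmpk2 (0.837 and 1.80 to 5.72 and 4.85 RPKM, adjusted p = 0.049).

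The interferons themselves were near 0. Of 20 type I and type III interferon genes 16 had 0 reads in all 10 libraries, and the most reads that any of them had in a library was 3. Ifng was at 612.6 and 589.2 RPKM in T activated and fell to 5.95 and 7.20 in T medium (log2 fold change -6.36 ± 0.49, edgeR adjusted p = 0.00345) and to 3.26 and 6.20 in T co-culture (-6.77 ± 0.50, adjusted p = 0.00162). It was between 1.26 and 5.92 RPKM in the keratinocyte libraries.

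Genes that receive or answer interferon were counted beside the 9, and the counts in keratinocytes stand against 3.08% of all genes higher at an unadjusted p under 0.05 and 0.703% by DESeq2. In keratinocytes edgeR called none of 14 receptor and signalling genes after adjustment, 5 being higher at an unadjusted p under 0.05 and 4 by DESeq2; Irf1 was at 3.19 and 5.72 RPKM alone and 58.3 and 62.3 in co-culture (DESeq2 adjusted p = 2.70e-12) and Irf7 at 1.98 and 2.14, then 13.9 and 16.7. Of 18 other type I interferon genes tested, none was called by edgeR, 11 were higher at an unadjusted p under 0.05 and 9 by DESeq2, with a median log2 fold change of 2.02. Of 14 genes of the interferon-γ response, none was called by edgeR, 13 were higher at that level and 11 by DESeq2, with a median of 3.55. Gbp2, an interferon-γ induced GTPase, went from 2.74 and 6.47 to 579 and 203 RPKM.

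In T medium against T activated, edgeR called 1 of the 14 receptor and signalling genes. It was Ifnar2, a subunit of the type I interferon receptor (log2 fold change 1.66, edgeR adjusted p = 0.0270). Of 17 other type I interferon genes edgeR called 0, and of 14 interferon-γ response genes 1, Irgm2 (1.87, adjusted p = 0.0186). These calls were all higher (all genes 2.32%). At an unadjusted p under 0.05, 7 of the 17 type I genes were higher and 1 lower (all genes 11.0% higher, and 1662 of 11863 lower), and DESeq2 called 6 of them higher, with 6 of the 14 receptor and signalling genes and 5 of the 14 interferon-γ response genes (all genes 7.26%). In T co-culture against T activated edgeR called 2 of the 14 receptor and signalling genes, Ifnar2 and Il10rb, and 0 of the 17 type I genes. It also called 3 of the 14 interferon-γ response genes, and all these calls were higher (all genes 4.59%). At an unadjusted p under 0.05, 8 of the 17 type I genes were higher (all genes 13.9%). DESeq2 called 7 of the 14 receptor and signalling genes, 7 of the 17 type I genes and 6 of the 14 interferon-γ response genes higher (all genes 9.56%). In T co-culture against T medium edgeR and DESeq2 called none of the 14 receptor and signalling genes, the 17 type I genes or the 14 interferon-γ response genes. The shares of all genes called higher were 0.261% and 0.666%. At an unadjusted p under 0.05, 2 genes of these lists were higher, both receptor or signalling genes (all genes 2.70%).

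**Figure D5:**
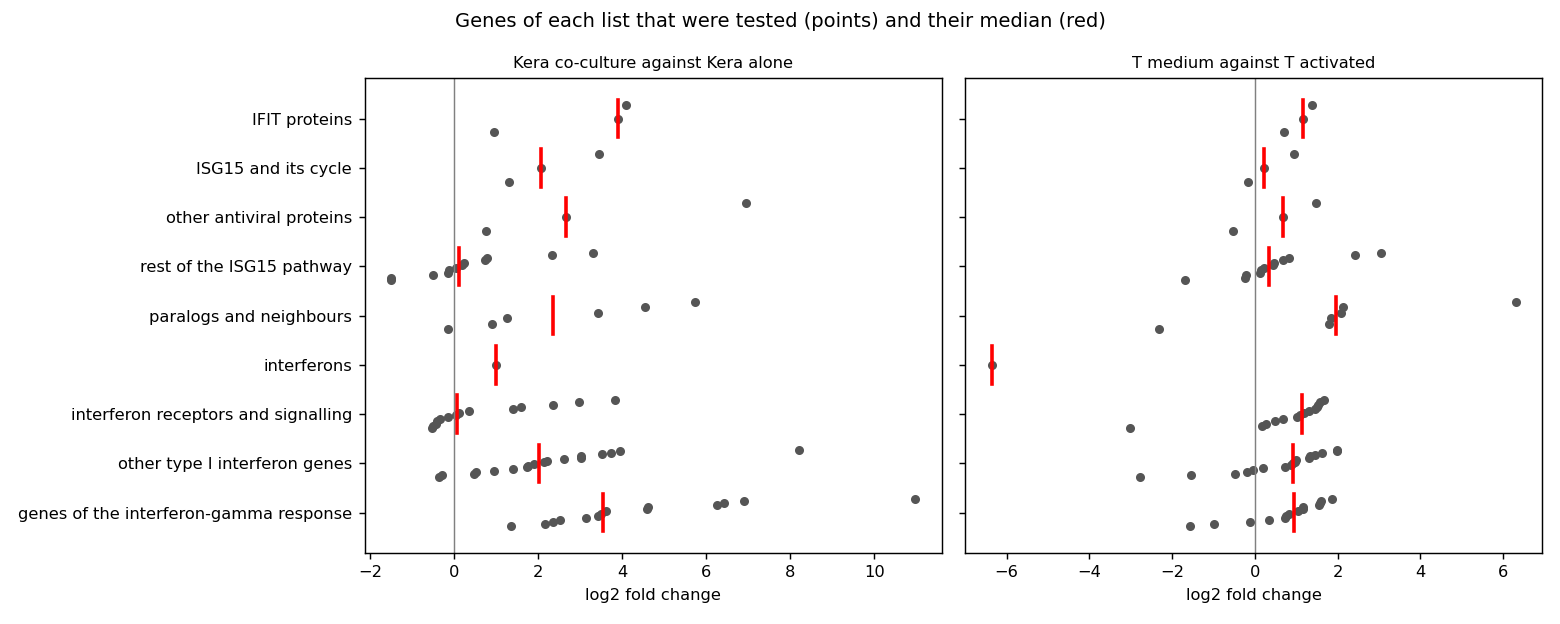
Log2 fold change of the tested genes of each list (points) and their median (red line), in Kera co-culture against Kera alone and in T medium against T activated. In keratinocytes the medians of the other type I interferon genes (2.02) and the interferon-γ response (3.55) lie far above 0 and those of the ISG15 pathway (0.13) and the receptors (0.08) near it, and in T cells the single interferon point is Ifng.

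Over the 10 libraries the genes did not share 1 profile. The correlation of each with the mean of the other 8 on log2(RPKM + 1) was 0.882 for Isg15, 0.867 for Herc6, 0.771 for Ifit3, 0.685 for Ifit1, 0.528 for Ifit2, 0.512 for Rsad2, 0.44 for Usp18, 0.426 for Ifi44 and 0.266 for Ifi27l2a. The pair most alike was Ifit1 and Ifit3 (0.935). These correlations describe 10 libraries in 5 groups, which share cell type and culture, and carry no p-value.

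Among 9296 genes with 5 or more RPKM in at least 1 library, the 10 outside the set with the highest correlation to its mean profile were Psmb10 (0.967), Irf1 (0.965), Zbp1 (0.958), Irgm1 (0.954), Tgtp1 (0.953), Gbp2 (0.949), Irgm2 (0.944), Lgals3bp (0.929), Gbp3 (0.914) and Gbp7 (0.91). None of the reads of Tgtp1 was uniquely mapped, so its value is uncertain. Of these 10 names, 9 stayed among the first 10 with a pseudocount of 0.1.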

How the data were processed

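RNA of the 10 libraries was isolated with a Qiagen kit, poly(A) RNA was selected, and sequencing libraries were made with NEBNext reagents, per the labels. The authors deposited, for each library, a table of counts (total, unique, exon-junction and intron reads per gene) and of RPKM, written with a decimal comma, from single-end reads that they mapped to GRCm38 in the CLC Genomics Workbench with its default settings; the annotation release and the use of strand in counting are not given in the sources used here. The deposited RPKM values were normalized by the authors to exon length and mapped reads. Reads that map to several places count in the totals, so near-identical copies can share them. All sample columns were mapped, and 0 were left out.

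Total exon counts were tested with edgeR 4.0.16 (R 4.3.3; filterByExpr, TMM, quasi-likelihood test, Benjamini-Hochberg adjustment over all tested genes, threshold 0.05). The keratinocyte libraries were fitted alone, the 6 T-cell libraries together, and 8 libraries for the interaction. DESeq2 1.42.0, limma 3.58.1 on log2(RPKM + 1) or log2(RPKM + 0.1), other scalings and filters, uniquely mapped reads, a replicate block and leaving out each library were alternatives. Fits were tested on simulated data. A pathway gene was named if among the 4 largest absolute log2 fold changes of its list and comparison, at 1 or more RPKM in either group; like profiles were the 10 highest correlations. The values of 1 gene that this rule names are not reported here. The genes and lists were chosen with earlier results of these data known. Sequences are from RefSeq. The design text gives a co-culture of 1 h, whereas labels and methods give 1 d, which is used here.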

Additional observations from a re-analysis of the deposited data

Results flagged for a closer look

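For Ifi44 the co-culture libraries of the cell types lay on opposite sides of their controls, although the T-cell difference alone did not pass (edgeR unadjusted p = 0.0724). The controls were not alike, because T medium had the mixed medium and the sources do not say that Kera alone had it. Both Kera co-culture libraries (212 and 117 reads) lay above both Kera alone libraries (3 and 0), and both T co-culture libraries (3 and 0) lay below both T medium libraries (17 and 15). The T co-culture libraries also held less B-cell marker RNA than the T medium libraries, and its part was not tested. The test of the difference gave an interaction of 10.10 on the log2 scale, with an edgeR adjusted p of 0.0945 and a DESeq2 adjusted p of 2.46e-06; over the alternatives without 1 library the term ranged from 9.23 to 13.95. Groups of 2 libraries are too small for a check of single libraries that stand apart.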

How the results depend on the processing

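Counts of the 9 genes called after adjustment, 0 in every comparison by edgeR, changed as follows. For Kera co-culture against Kera alone, DESeq2 called 6, the replicate block together with removal of a gene length trend 6, and leaving out 1 library 0 to 4. For T medium against T activated, DESeq2 and no filter on low counts each called 2, and leaving out 1 library 0 to 1. For T co-culture against T activated, DESeq2 called 3, no filter 2, limma on log2(RPKM + 0.1) 1, and leaving out 1 library 0 to 1. For T co-culture against T medium leaving out 1 library gave 0 to 0. For the interaction DESeq2 called 3, limma on log2(RPKM + 1) and no filter 1 each, and leaving out 1 library 0 to 0. The causes were not tested.

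Over all genes, calls in keratinocytes were 0 by edgeR, 186 by DESeq2, 11 with no filter, 2 with the replicate block, 515 with the block and the length trend removed, 4 with all 10 libraries in one fit, and 0 to 1164 without 1 library. Same-numbered keratinocyte libraries deviated together (r = 0.558 over 12515 genes), but only the number is shared in the labels; the replicate block alone called 0 of the 9. For T medium against T activated there were 776 calls, 1947 by DESeq2, 1945 with no filter and 24 to 1067 without 1 library. For T co-culture against T activated there were 1222, 2368 by DESeq2, 2425 with no filter and 266 to 1093 without 1 library. For T co-culture against T medium there were 31, 87 by DESeq2, 99 and 107 by limma with a pseudocount of 1 and 0.1, 141 with no filter, 0 with 10 or more reads in every library, and 16 to 52 without 1 library. For the interaction there were 76, 353 by DESeq2, 205 with no filter, 0 with 10 or more reads in every library, and 21 to 105 without 1 library.

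Single log2 differences turned in sign for small effects when 1 library was left out, with these ranges. In keratinocytes Ifi27l2a ranged from -0.99 to 2.04. Against T activated, Isg15 ranged from -0.0049 to 0.45 and Usp18 from -0.31 to 0.0159 in T medium, and Ifit1 from -0.39 to 1.16, Ifit3 from -0.10 to 1.99 and Rsad2 from -0.64 to 1.63 in T co-culture. Between T co-culture and T medium, Ifit1 ranged from -1.08 to 0.42, Ifit2 from -0.27 to 0.64, Ifit3 from -1.11 to 0.23, Herc6 from -0.0505 to 0.25, Rsad2 from -1.33 to 0.93 and Ifi27l2a from -0.30 to 0.0507, and limma turned Rsad2 to -0.0196 and -0.16 with a pseudocount of 1 and 0.1. In the interaction Usp18 ranged from -0.11 to 1.40 and Ifi27l2a from -0.91 to 2.16. Of the other values for single genes under an alternative, 605 kept direction and side of the threshold and 33 passed it. Ifi44 has too few reads for the filter of 10 reads in every library. So has Ifit3 in keratinocytes and in the interaction, with 8 reads in library 1 of Kera alone. In addition, 2 libraries a group limit every test.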
